A study of Mus musculus with 4 samples.

Results

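The genes described here encode 10 enzymes of pyrimidine nucleotide and deoxynucleotide synthesis: Cad, Dhodh and Umps, which build UMP, Ctps, which makes CTP, the ribonucleotide reductase subunits Rrm1 and Rrm2, Dut, Dctd and Dtymk of the branch that leads to thymidine nucleotides, and Tk1 of thymidine salvage. They were chosen by name, and all 10 were found among the 28765 genes of the deposited table by matching its Ensembl identifiers to mouse symbols. The data are RNA-seq levels from CD-1 mouse embryos at embryonic day 9.5 in 4 libraries, 1 each of NTD brain, control brain, NTD spine and control spine. NTD embryos had visible neural tube defects, came from parents given a folate-poor diet for over 8 weeks, and were exposed on day 7.5 to the folate antagonist methotrexate, given to the mother by intraperitoneal injection at 1.5 mg/kg. Control embryos are labelled with the treatment "control" but carry the same protocol text, and the sources used here do not say whether their mothers received the diet or an injection, or how many embryos lie behind a library.

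UMP is built from glutamine, aspartate and bicarbonate and is the parent of all other pyrimidine nucleotides. Ribonucleotide reductase then turns ribonucleotides into the deoxynucleotides needed for DNA synthesis. Thymidylate is made from dUMP in a folate-dependent step, the reaction through which folate shortage and methotrexate are best known to limit DNA synthesis, or is salvaged from thymidine. Transcripts of several of these enzymes, among them Rrm2 and Tk1, are known to be most abundant around S phase.

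The library totals were 16470311 reads for NTD brain, 16911677 for control brain, 16605133 for NTD spine and 16272101 for control spine. The region labels were checked on patterning genes. The summed level of 6 brain genes was 67.1 FPKM in NTD brain, 75.3 in control brain, 5.82 in NTD spine and 11.4 in control spine. The summed level of 6 trunk Hox genes was 8.58 FPKM in NTD brain, 0.123 in control brain, 124 in NTD spine and 116 in control spine, so the NTD brain library held trunk transcripts that control brain nearly lacked. FPKM, the deposited unit, counts reads relative to the length of the gene and the size of the library. A fold compares the reads recovered for a gene, each as a share of its library total, and its exact 95% interval covers counting error only. With 1 library per group no difference within a tissue has a replicate check.

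All 10 genes were expressed in every library and held between 480 and 7871 reads. Their levels were steady: in each gene the highest of the 4 libraries lay within 1.3 times the lowest. Rrm2, the small subunit that carries the radical of ribonucleotide reductase, was the highest with a mean of 159.6 FPKM, above 97.9% of the 12940 genes averaging 1 FPKM or more. Dut (62.3 FPKM), Ctps (60.8) and Dtymk (59.1) followed, and the ranges of neighbours among these 3 overlapped across libraries. Umps (42.5), Cad (41.6), Rrm1 (35.5) and Dctd (30.7) came next, again with overlapping ranges between neighbours. Tk1 (14.8) and Dhodh (4.92) were the lowest and stood clear of the genes above them. These levels are per kilobase of all annotated exons, a length that runs from 2410 bases in Dut to 11012 in Rrm1, so a gene with long exons that are rarely used is listed lower.

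**Figure D1:**
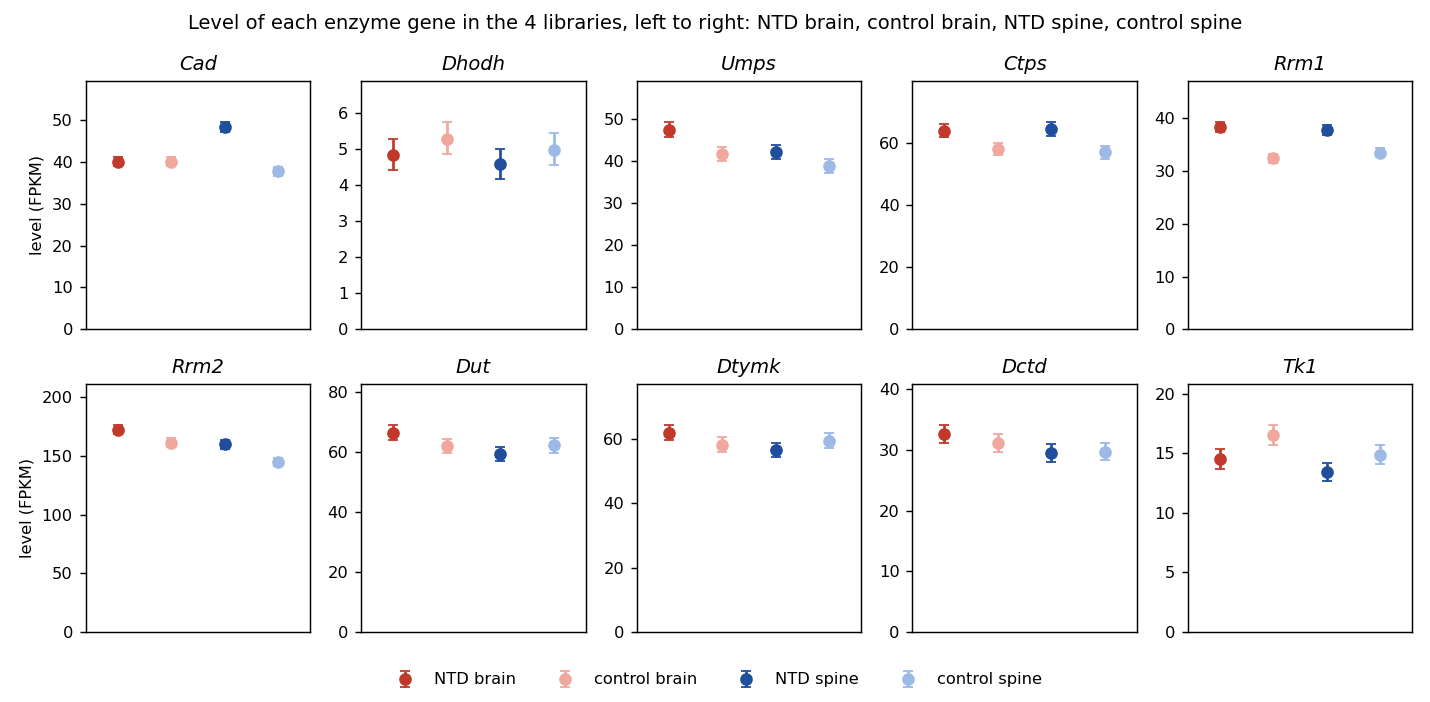
Level of each enzyme gene, 1 panel a gene with its own axis from 0, in FPKM. Points are single libraries in the order NTD brain, control brain, NTD spine and control spine, and bars are 95% counting intervals; Cad stands out in NTD spine (48.3 FPKM) and Rrm1 is higher in both NTD libraries.

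In the NTD libraries Rrm1, Umps, Ctps and Rrm2 were modestly higher than in the matching controls in both tissues, Tk1 was lower in both, and Cad was higher in spine and level in brain. Set against genes of like GC content and length, the log2 ratio of Rrm2 in brain was -0.01 in place of 0.10. By the same measure, that of Cad in brain was 0.12 in place of -0.002, so Cad was level there only without this adjustment. That of Tk1 was -0.06 in place of -0.17 in brain and -0.06 in place of -0.14 in spine. No difference reached 1.5-fold on the scale of log2(FPKM + 1) in either tissue. That fold was passed upward by 2.02% and downward by 2.56% of all genes compared in brain, and by 1.45% and 2.93% in spine. Counting intervals lay above equality for 6 of the 10 genes in brain, against 16.1% of the 12721 genes that have an interval, and for 5 in spine, against 17.2%. They lay below equality for 1 gene in each tissue, against 25.7% in brain and 26.6% in spine. Deeper genes have narrower intervals. Among the 4776 protein-coding genes averaging 10 FPKM or more, as 9 of the 10 did, the shares above equality were 24.9% in brain and 26.3% in spine, and those below it 30% in brain and 31.6% in spine. In both tissues at once, 4 of the 10 lay above equality, against 7.96% of all genes, and 1 below, against 13.8%. These last shares were not restricted to the deeper genes.

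The first steps of the pathway did not move together. Cad encodes the trifunctional protein that starts pyrimidine synthesis, covering carbamoyl phosphate synthetase, aspartate transcarbamylase and dihydroorotase (ENSMUSG00000013629, chromosome 5, 31054780 to 31078479). Cad stood at 40.1 FPKM in NTD brain, against 40.1 in control brain, and at 48.3 FPKM in NTD spine, against 37.8 in control spine. The NTD spine library was thus the high one, and the other 3 lay close together. The fold was 1.28 in spine (1.23 to 1.33) and 0.999 in brain (0.962 to 1.04). The spine fold was 1.28 times the brain fold, with a counting interval of 1.21 to 1.35, and 95.1% of all genes had a smaller spine minus brain difference in log2 ratio. This difference rests on 1 pair of libraries per tissue and was not tested over samples.

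Dhodh encodes the mitochondrial enzyme that oxidises dihydroorotate to orotate (chromosome 8, 109591343 to 109608673). It stood at 4.83 FPKM in NTD brain, against 5.28 in control brain, and at 4.57 FPKM in NTD spine, against 4.98 in control spine. Both intervals reached past equality, with folds of 0.914 (0.809 to 1.03) in brain and 0.917 (0.808 to 1.04) in spine, so no difference was detectable at this depth. Umps encodes the bifunctional enzyme that turns orotate into UMP (ENSMUSG00000022814, chromosome 16, 33954782 to 33967038). It stood at 47.4 FPKM in NTD brain, against 41.8 in control brain, and at 42.1 FPKM in NTD spine, against 38.8 in control spine. Umps was therefore higher in the NTD library of each tissue, 1.14-fold (1.07 to 1.20) in brain and 1.09-fold (1.02 to 1.15) in spine. Relative to each other, Cad to Umps was 0.845 in NTD brain, against 0.961 in control brain, and 1.15 in NTD spine, against 0.974 in control spine. Without adjustment, the balance of these transcripts thus went opposite ways in the 2 tissues, a contrast given without an interval. Set against genes of like GC content and length, the log2 ratio of Cad in brain was 0.12 in place of -0.002. That of Umps in brain lay between 0.14 and 0.21 over all settings, so the shift in brain was smaller after adjustment.

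Ctps encodes CTP synthase, which aminates UTP (chromosome 4, 120539868 to 120570276). It stood at 63.9 FPKM in NTD brain, against 57.9 in control brain, and at 64.4 FPKM in NTD spine, against 56.9 in control spine. The NTD libraries were the higher in both tissues, by 1.10-fold (1.05 to 1.16) in brain and 1.13-fold (1.08 to 1.19) in spine. The related gene Ctps2 was much lower in level and leaned the other way, at 5.34 FPKM in NTD brain, against 5.70 in control brain, and 6.12 FPKM in NTD spine, against 6.34 in control spine. Both of its intervals included equality.

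Rrm1 encodes the large, catalytic subunit of ribonucleotide reductase (ENSMUSG00000030978, chromosome 7, 102441695 to 102469771). It stood at 38.3 FPKM in NTD brain, against 32.4 in control brain, and at 37.7 FPKM in NTD spine, against 33.4 in control spine. Both NTD libraries were above both controls, and the folds were 1.18 (1.14 to 1.23) in brain and 1.13 (1.09 to 1.17) in spine. Rrm2 (ENSMUSG00000020649, chromosome 12, 24708241 to 24714146) stood at 172 FPKM in NTD brain, against 161 in control brain, and at 159.9 FPKM in NTD spine, against 144.6 in control spine. It was higher in each NTD library than in its own control, 1.07-fold (1.03 to 1.10) in brain and 1.11-fold (1.07 to 1.14) in spine, although NTD spine lay just under control brain. The level of Rrm2 relative to Rrm1 was 4.50 in NTD brain, against 4.98 in control brain, and 4.24 in NTD spine, against 4.33 in control spine. Rrm2b, the small subunit that is induced by p53, stayed sparse, at 0.718 FPKM in NTD brain, against 0.906 in control brain, and at 0.765 FPKM in NTD spine, against 0.868 in control spine, with both intervals including equality.

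Promoter letters are shown for Umps and the Rrm1 and Rrm2 pair, which were higher in both tissues, and for Cad, which was higher in spine. Ctps, also higher in both tissues, is not printed. Each line gives the 250 bases before the RefSeq gene start on GRCm38.p6, on the strand of the gene, and capitals mark matches to the motifs searched. The windows are chr16:33967039-33967288 on the minus strand for Umps, and chr5:31054530-31054779, chr7:102441445-102441694 and chr12:24708004-24708253 on the plus strand for Cad, Rrm1 and Rrm2.
Umps: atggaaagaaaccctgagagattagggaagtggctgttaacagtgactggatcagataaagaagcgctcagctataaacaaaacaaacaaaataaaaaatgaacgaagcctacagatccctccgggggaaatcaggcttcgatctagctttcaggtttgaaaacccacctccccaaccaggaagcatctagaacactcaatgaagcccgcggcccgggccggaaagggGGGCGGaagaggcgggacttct
Cad: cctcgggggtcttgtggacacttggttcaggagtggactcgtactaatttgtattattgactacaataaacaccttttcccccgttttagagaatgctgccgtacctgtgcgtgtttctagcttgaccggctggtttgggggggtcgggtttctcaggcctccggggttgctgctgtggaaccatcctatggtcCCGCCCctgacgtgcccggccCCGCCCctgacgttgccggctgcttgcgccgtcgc
Rrm1: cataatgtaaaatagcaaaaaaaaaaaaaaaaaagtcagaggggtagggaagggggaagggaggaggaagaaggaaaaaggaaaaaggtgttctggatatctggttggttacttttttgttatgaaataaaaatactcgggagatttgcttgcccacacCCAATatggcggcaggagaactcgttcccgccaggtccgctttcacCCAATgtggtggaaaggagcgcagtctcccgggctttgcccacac
Rrm2: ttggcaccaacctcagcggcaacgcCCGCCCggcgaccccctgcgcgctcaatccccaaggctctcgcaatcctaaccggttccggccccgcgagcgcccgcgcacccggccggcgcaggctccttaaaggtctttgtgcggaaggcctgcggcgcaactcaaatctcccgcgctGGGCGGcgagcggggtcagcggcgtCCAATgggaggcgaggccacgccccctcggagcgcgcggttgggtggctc
The motifs were searched on both strands: CCAAT, which is bound by NF-Y, the GC box GGGCGG, bound by Sp family factors, the E-box CACGTG, bound by Myc and related factors, and the E2F sites TTTCCCGC, TTTGGCGC, TTTCGCGC and TTTGCCGC. Rrm1 has 2 CCAAT matches, which begin 91 and 45 bases before the start. Rrm2 has 1 CCAAT match, at 50 bases, and 2 GC boxes. Cad has 2 GC boxes, at 56 and 35 bases, and Umps has 1, at 22 bases. Ctps, not printed, has 1 GC box, at 20 bases, and no CCAAT match. Of the 9 genes with a RefSeq entry, 4 had a CCAAT match, 7 a GC box and 1 an E-box, Dtymk, in at least 1 window. Counted by window, 5 of their 12 windows held CCAAT, 8 the GC box, 1 the E-box and 0 any of the 4 E2F sites. Overlapping windows of Dctd share 1 CCAAT match and 1 GC box, which are counted in each. Among all 32851 promoter windows of the same length, 33.8% held CCAAT, 32.7% the GC box, 6.02% the E-box and 1.86% an E2F site. These are matches of letters only, and none of the capitals overlap between motifs in the lines shown.

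Dut and Dtymk, of the thymidylate branch, were slightly higher in NTD brain than in control brain, while no difference was detectable in spine for Dut, Dtymk or Dctd. Dut, which hydrolyses dUTP to dUMP and so keeps uracil out of DNA (chromosome 2, 125247190 to 125258608), stood at 66.3 FPKM in NTD brain, against 61.9 in control brain, and at 59.1 FPKM in NTD spine, against 62.1 in control spine. Dtymk, the kinase that turns dTMP into dTDP (chromosome 1, 93792576 to 93801934), stood at 62.0 FPKM in NTD brain, against 58.3 in control brain, and at 56.6 FPKM in NTD spine, against 59.5 in control spine. In both genes NTD brain was the highest and NTD spine the lowest of the 4 libraries. The folds in brain were 1.07 for Dut (1.01 to 1.13) and 1.06 for Dtymk (1.01 to 1.12), while those in spine were 0.953 (0.900 to 1.01) and 0.952 (0.900 to 1.01) and did not exclude equality. The log2 ratio in spine was 0.01 for Dut when set against genes of like GC content and length, in place of -0.07, and -0.01 for Dtymk, in place of -0.07. The spine fold was 0.889 times the brain fold in Dut (0.821 to 0.962) and 0.895 times in Dtymk (0.828 to 0.968), counting error only. Dctd, which deaminates dCMP to dUMP (chromosome 8, 48099092 to 48153233), stood at 32.6 FPKM in NTD brain, against 31.1 in control brain, and 29.4 FPKM in NTD spine, against 29.7 in control spine. Its intervals included equality in both tissues, and its log2 ratio of -0.01 in spine was 0.04 with libraries rescaled to the same sum and 0.03 by the median ratio.

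Tyms, thymidylate synthase, carries out the folate-dependent step between Dut and Dtymk. It stood at 18.8 FPKM in NTD brain, against 17.4 in control brain, and at 17.9 FPKM in NTD spine, against 17.2 in control spine. The fold was 1.08 (1.01 to 1.15) in brain and 1.04 (0.973 to 1.11) in spine, where the interval included equality. Tk1, the cytosolic thymidine kinase that bypasses this step by salvage (ENSMUSG00000025574, chromosome 11, 117815526 to 117826092), stood at 14.5 FPKM in NTD brain, against 16.5 in control brain, and at 13.4 FPKM in NTD spine, against 14.9 in control spine. Tk1 was the only one of the 10 whose interval lay below equality in both tissues, at 1.14-fold lower (1.05 to 1.23) in brain and 1.11-fold lower (1.02 to 1.20) in spine. Both NTD libraries were below both controls, though NTD brain lay close to control spine. The ratio of Tyms to Tk1 was 1.29 in NTD brain, against 1.05 in control brain, and 1.34 in NTD spine, against 1.16 in control spine. The mitochondrial kinase Tk2 stood at 5.98 FPKM in NTD brain, against 6.72 in control brain, and 6.31 FPKM in NTD spine, against 6.16 in control spine, with both intervals including equality.

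**Figure D2:**
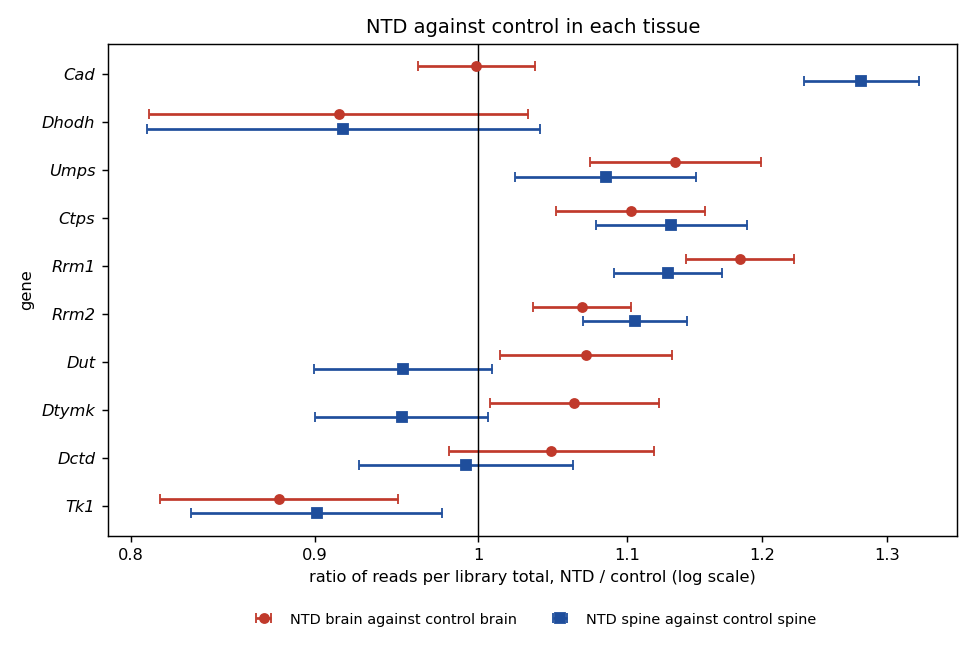
Ratio of reads per library total, NTD over control, on a log scale for each enzyme gene, with circles for brain and squares for spine. Bars are 95% counting intervals and the vertical line marks equality; Umps, Ctps, Rrm1 and Rrm2 lie to its right in both tissues, Tk1 to its left in both, and Cad to its right in spine at 1.28.

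Both tissues were combined in limma on log2(FPKM + 1) over all 12940 genes, with tissue as a block and Benjamini-Hochberg adjustment. The labels name no embryos, so brain and spine may come from the same ones and need not be independent. The fit has 1 residual degree of freedom before moderation, which is the disagreement between the tissues. Moderation adds 3.41 prior degrees of freedom from the trend over all genes, so SE and p do not measure that disagreement alone. Any batch of treatment cannot be told apart from treatment. None of the 10 genes passed an adjusted p of 0.05, which 0.0773% of all genes passed upward and 0.0696% downward. The 10 adjusted p-values ran from 0.155 to 0.949. Rrm1 had the highest estimate, a log2 difference of 0.20 (SE 0.05, higher in both NTD libraries than in their controls), with an unadjusted limma p of 0.0153 and an adjusted p of 0.155. At an unadjusted p under 0.05, limma gave 3 higher genes, Rrm1, Ctps (0.16, SE 0.05) and Umps (0.15, SE 0.05), and 1 lower gene, Tk1 (-0.16, SE 0.06). Over all genes, 7.23% were higher and 14.7% lower by that measure. Cad had an estimate of 0.17 with the largest SE of the 10, 0.10, since its tissues differ.

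The median log2 ratio of the 10 genes was 0.09 in brain, where that of all genes was -0.03, and 0.05 in spine, where that of all genes was -0.04. In brain 7 were above 0, against 43.6% of all genes, and in spine 5, against 41.9%. Both tissues gave a ratio above 0 for 4 genes, against 26.7% of all genes, and below 0 for 2, Tk1 and Dhodh, against 41.1%. Another 3, Dut, Dtymk and Dctd, were above 0 in brain and below 0 in spine, and Cad was the reverse. Log2 ratios fell with the GC content of genes, with Spearman's rho across 12927 genes of -0.34 in brain and -0.36 in spine, and genes are not independent replicates. The GC content of the 10 ran from 43.3% in Rrm1 to 57.4% in Cad, where the median gene had 49.9%. Set against genes of like GC content and length, the log2 ratio of Cad was 0.12 in brain in place of -0.002, and 0.41 in spine in place of 0.35. That of Rrm1 in spine was 0.11 in place of 0.17.

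**Figure D3:**
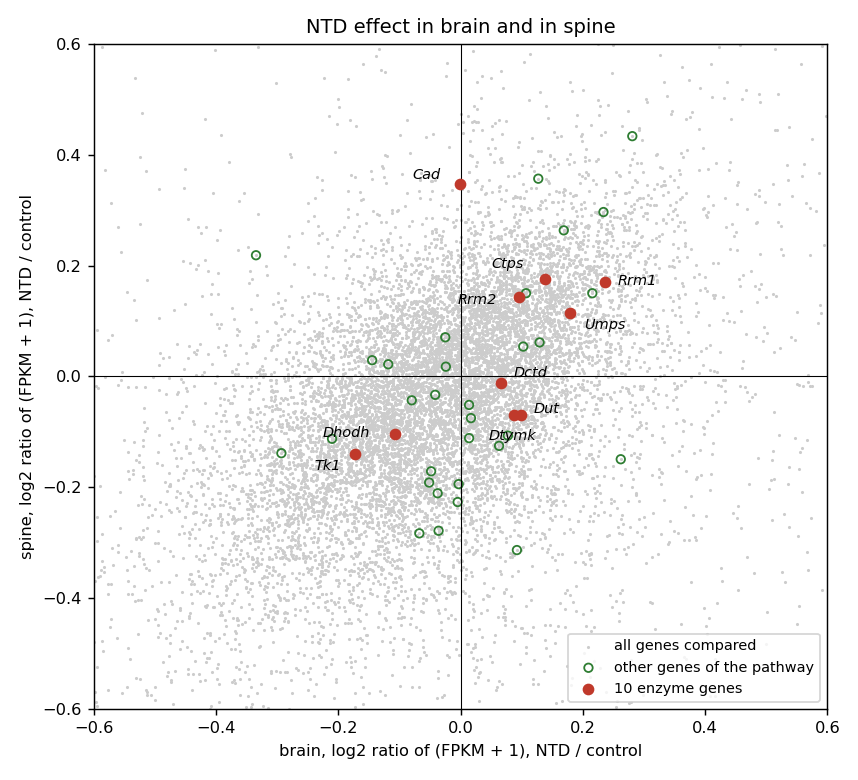
Log2 ratio of (FPKM + 1), NTD over control, in brain (horizontal axis) and in spine (vertical axis), for all genes compared (grey), other genes of the pathway (open circles) and the 10 enzyme genes (filled, named); genes beyond the axis limits are not drawn. Rrm1, Umps, Ctps and Rrm2 lie in the upper right, Tk1 and Dhodh in the lower left, and Cad at 0.35 in spine and near 0 in brain.

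Of 41 other genes of pyrimidine and deoxynucleotide metabolism that were listed, 39 had a row in the table and 31 averaged 1 FPKM or more. None of the 31 passed the limma threshold for NTD or reached 1.5-fold in either tissue. Their median log2 ratio was near 0 in brain (-0.003) and -0.05 in spine. Adjusted for GC content and length, it was 0.04 in brain and 0 in spine. Above 0 were 15 in brain, against 43.6% of all genes, and 13 in spine, against 41.9%. Other synthesis enzymes had medians of 0.13 in brain and 0.06 in spine, and of 0.09 and 0 when adjusted for GC content and length. Intervals lay above equality in 5 of 10 genes in brain, against 16.1% of all genes, and 3 in spine, against 17.2%. Of these enzymes, 0 lay below equality in brain, against 25.7%, and 1 in spine, against 26.6%. Among them, named after their values were seen, Prps1 and Prps2, which make the ribose donor phosphoribosyl pyrophosphate, were higher in both tissues, Prps1 by 1.16-fold (1.09 to 1.24) in brain and 1.11-fold (1.04 to 1.19) in spine, and Prps2 by 1.13-fold (1.03 to 1.24) and 1.22-fold (1.11 to 1.34). Reads of Nme1 and Nme2 are uncertain, because the read-through gene Gm20390 shares exons with both.

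The 13 salvage and transport genes compared had medians of -0.04 in brain and -0.05 in spine. When adjusted for GC content and length, the medians were -0.04 in brain and 0.02 in spine. Without adjustment, 11 of 13 estimates were below 0 in limma, against 58.5% of all genes, and none passed the threshold. Intervals lay above equality in 1 of the 13 in brain, against 16.1% of all genes, and 2 in spine, against 17.2%. Of these genes, 3 in each tissue lay below it, against 25.7% in brain and 26.6% in spine. Among them, the uridine kinase Uck1 had an interval below equality in brain, while the mitochondrial pyrimidine nucleotide carrier Slc25a33 stood at 5.59 FPKM in NTD spine, against 3.88 in control spine, 1.44-fold higher (1.14 to 1.83). These were named after their values were seen. The 8 breakdown and pool clearance genes had medians of -0.01 in brain and -0.11 in spine, and of 0.04 and -0.03 when adjusted in this way. Intervals lay below equality in 0 of 8 in brain, against 25.7% of all genes, and in 3 of 8 in spine, against 26.6%, and above it in none in either tissue. Those 3 were Nt5c and Nt5m, nucleotidases that act on deoxynucleotides, and Dctpp1, which removes dCTP and altered nucleotides, and they too were named after their values were seen. The catabolic genes Dpys and Upb1 had at most 3 reads in any library.

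Since several of these enzymes follow the cell cycle, lists of cell cycle and cell type genes were set beside them. The 16 S phase genes had medians of 0.02 in brain and 0.12 in spine. Set against genes of like GC content and length, these medians were 0.08 and 0.17, and those of the 10 enzymes 0.09 and 0.06. Intervals lay above equality in 4 S phase genes in brain, against 16.1% of all genes, and 10 in spine, against 17.2%. Of the 16, 4 lay below it in brain, against 25.7%, and 2 in spine, against 26.6%. All 16 averaged above 10 FPKM. Among protein-coding genes averaging 10 FPKM or more, the shares above equality were 24.9% in brain and 26.3% in spine. Those below it were 30% and 31.6%. The summed level of the 16 was 1181 FPKM in NTD brain, against 1132 in control brain, and 1155 FPKM in NTD spine, against 1040 in control spine. Pcna, the sliding clamp of replication and the highest of the list, was 1.15-fold higher (1.11 to 1.18) in brain and 1.23-fold higher (1.19 to 1.28) in spine. Uhrf1, the next highest, which helps to maintain DNA methylation at replication, stood at 138 FPKM in NTD brain, against 148 in control brain, and at 135 FPKM in NTD spine, against 134 in control spine, with a brain interval below equality and a spine interval that included it. The 12 mitosis genes had medians of 0.01 in each tissue. Above 0 were 7 in brain, against 43.6% of all genes, and 6 in spine, against 41.9%, with 5 and 6 below. None of either list passed the limma threshold.

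Among cell type markers, the summed levels of early neuron and neural progenitor genes were lower in both NTD libraries, and those of somite genes higher in both. Primitive erythroid and heart muscle sums went opposite ways in brain and spine. The summed level of 10 early neuron genes was 103 FPKM in NTD brain, against 161 in control brain, and 49.8 FPKM in NTD spine, against 96.3 in control spine. Of these genes, 10 of 10 were lower in brain and 9 of 10 in spine. Among all 12940 genes compared, 7292 were lower in brain and 7509 in spine. Tubb3, a neuronal tubulin, was 1.52-fold lower in brain (1.43 to 1.61) and 2.15-fold lower in spine (1.96 to 2.35). Primitive erythroid genes summed to 4820 FPKM in NTD brain, against 4482 in control brain, and 3645 FPKM in NTD spine, against 6987 in control spine. Heart muscle genes summed to 208 FPKM in NTD brain, against 50.2 in control brain, and 492 FPKM in NTD spine, against 734 in control spine. Gut and yolk sac genes summed to 1.71 FPKM in NTD brain, against 1.70 in control brain, and 38.5 FPKM in NTD spine, against 124.8 in control spine. Neural progenitor genes summed to 347 FPKM in NTD brain, against 415 in control brain, and 253 FPKM in NTD spine, against 299 in control spine. Somite genes summed to 18.8 FPKM in NTD brain, against 7.90 in control brain, and 127 FPKM in NTD spine, against 105 in control spine. Endothelial genes summed to 50.4 FPKM in NTD brain, against 50.8 in control brain, and 66.3 FPKM in NTD spine, against 61.9 in control spine. The macrophage genes were near 0, with sums of 1.20 FPKM in NTD brain, 1.37 in control brain, 0.671 in NTD spine and 0.856 in control spine. The part of these differences in the values of the 10 enzyme genes was not tested. In bulk tissue fewer cells of a type and less RNA per cell cannot be told apart.

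**Figure D4:**
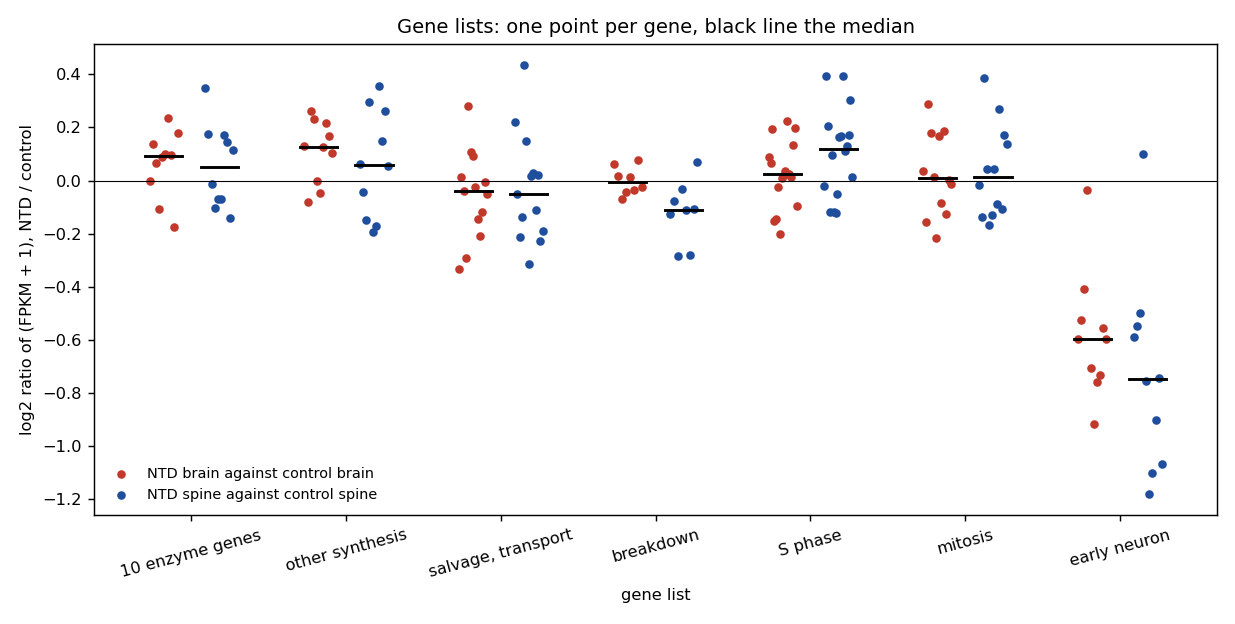
Log2 ratio of (FPKM + 1), NTD over control, for each gene of 7 lists, in brain (red, left) and in spine (blue, right); 1 point is 1 gene averaging 1 FPKM or more and the black line is the median. The 10 enzyme genes have medians of 0.09 and 0.05, whereas early neuron genes have medians of -0.60 and -0.75.

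The tissues themselves differed little in these enzymes. In control embryos 4 of the 10 intervals lay above equality in brain against spine, where 20% of all genes did, and none below, where 19.2% did. They were Rrm2, 1.12-fold higher in control brain (1.08 to 1.15), Tk1, 1.11-fold (1.03 to 1.20), Umps, 1.08-fold (1.02 to 1.14), and Cad, 1.06-fold (1.02 to 1.10). In NTD embryos 5 lay above, against 21.2% of all genes, and Cad alone below, against 22.3%. Cad was 1.20-fold lower in NTD brain than in NTD spine (1.16 to 1.25), the opposite order to the controls. Dut (1.12-fold, 1.06 to 1.19), Dtymk (1.10-fold, 1.04 to 1.16) and Dctd (1.11-fold, 1.03 to 1.18) were higher in NTD brain than in NTD spine, while their intervals in the control pair included equality. With treatment as a block, none of the 10 passed the limma threshold for tissue, which 2.58% of all genes passed upward and 4.09% downward, and their adjusted p-values ran from 0.233 to 0.947.

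**Figure D5:**
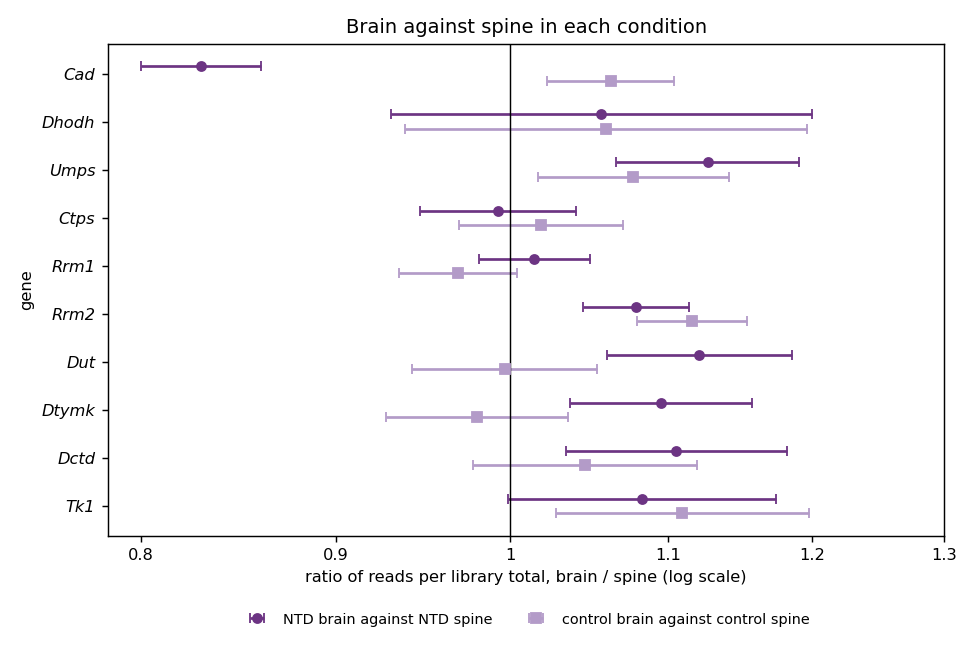
Ratio of reads per library total, brain over spine, on a log scale for each enzyme gene, with circles for the NTD pair and squares for the control pair. Bars are 95% counting intervals; Cad lies left of equality in the NTD pair (1.20-fold lower) and right of it in the control pair (1.06-fold higher).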

How the data were processed

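RNA-seq libraries of 4 groups, 1 each, were grouped by sample title. The authors deposited 1 table of FPKM with 28765 genes. HISAT2 2.0.1 was the aligner and mm10 the genome build, per the submitters' processing notes; for the counting program, annotation, strand setting and filters, nothing is stated in the sources used here. Identifiers were matched to GENCODE M21 (GRCm38): 28698 matched and 67 did not. FPKM times union exon length stepped in units of 1 read, and the size of the step in each library gave its total and the reads of each gene; 98.6% of matched genes were whole in all 4 libraries within 0.01 reads, all 10 enzyme genes among them.

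Log2 ratios used a pseudocount of 1 FPKM and were taken over genes averaging 1 FPKM or more. Fold intervals are exact conditional binomial (Clopper-Pearson), at 95%; level intervals are exact Poisson. limma 3.58.1 (R 4.3.3, trend) was fitted as log2(FPKM + 1) on tissue and treatment. The steps were tested on simulated data. Other calculations used Python 3.11.15 with scipy 1.17.1. The rule for naming genes was all 10 enzymes, Tyms and the paralogs Ctps2, Rrm2b and Tk2, other pathway genes beyond 1.5-fold or past the limma threshold, and up to 3 genes with the highest mean per further list. Pathway genes named outside this rule are marked in the text as named after their values were seen. The exceptions are Nme1 and Nme2, named for shared exons, and Dpys and Upb1, named for few reads. Members and lists were chosen with earlier results of these data known. Promoter letters are from RefSeq (GRCm38.p6). Alternatives are listed in the closing section.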

Additional observations from a re-analysis of the deposited data

How the results depend on the processing

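No paired analysis was possible because each group has 1 library, so the groups share only 1 replicate number; leaving out a library leaves no residual degree of freedom in the fit. Counts over all genes depended on the processing more than the enzymes did. For genes at least 1.5-fold higher and lower, in that order, NTD brain against control brain gave 262 and 331 as reported, 453 and 590 with a pseudocount of 0.1, 79 and 64 when it was 5, 545 and 622 with no filter, 102 and 83 at an average of 5 FPKM or more, 98 and 124 among protein-coding genes, and 104 and 101 at 2-fold. NTD spine against control spine gave 188 and 379 as reported and, under the same alternatives, 289 and 759, 58 and 100, 510 and 687, 49 and 143, 35 and 184, and 84 and 88. Control brain against control spine gave 376 and 682 as reported, 117 and 277 with a pseudocount of 5, 677 and 1134 with no filter, 124 and 242 at an average of 5 FPKM or more, 127 and 308 at 2-fold, and 600 higher with a pseudocount of 0.1.

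In limma the NTD counts of 10 higher and 9 lower genes became 34 and 49 when the pseudocount was 5, 0 and 0 with no filter and without trend, 34 and 85 at an average of 5 FPKM or more, 185 and 343 with libraries rescaled to the same sum, 40 and 42 by the median ratio, 105 and 347 among protein-coding genes, 32 and 46 with robust moderation, 17 higher when adjusted for GC content and length, and 17 lower with a pseudocount of 0.1. With no filter 3232 genes, and without trend 2423, had an unadjusted p under 0.05 in limma. The tissue counts of 334 and 529 became 0 and 0 with no filter and 628 and 885 among protein-coding genes, and 1055 lower with libraries rescaled to the same sum. The cause was not tested.

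No enzyme gene passed the limma threshold or 1.5-fold under any alternative run. The adjusted limma p of Rrm1 for NTD, 0.155 as reported, ranged from 0.0806 to 0.422 over all settings. The log2 ratio of Rrm2 in brain was -0.0083 when adjusted for GC content and length, in place of 0.10. Brain against spine estimates near 0 changed sign: when adjusted for GC content and length, Cad (0.011), Ctps (-0.021) and Rrm1 (0.037), and with libraries rescaled to the same sum, Ctps (-0.053) and Dtymk (-0.011). With 1 library per group, depth limits the intervals only to counting error, and Dhodh, with the fewest reads of the 10, has the widest.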

Other observations

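Of the pathway genes other than the 10 enzymes, 3 with higher levels in brain than in spine are given here. Slc29a1, an equilibrative nucleoside transporter, stood at 7.79 FPKM in NTD brain, against 4.70 in NTD spine, and at 7.24 FPKM in control brain, against 6.09 in control spine. It was 1.66-fold higher in the NTD pair (1.44 to 1.91) and 1.19-fold higher in the control pair (1.04 to 1.36), and the adjusted limma p for tissue was 0.143. Dck, the deoxycytidine kinase, stood at 31.5 FPKM in NTD brain, against 25.3 in NTD spine, and at 31.2 FPKM in control brain, against 26.2 in control spine. It was 1.25-fold higher (1.17 to 1.33) in the NTD pair and 1.19-fold (1.11 to 1.27) in the control pair, with an adjusted limma p of 0.0659. Prps1, of phosphoribosyl pyrophosphate synthesis, was 1.24-fold (1.16 to 1.32) and 1.18-fold (1.10 to 1.27) higher, with an adjusted limma p of 0.0641. These 3 genes were named after their values were seen, and none passed the threshold.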
